A study of Mus musculus with 18 samples.

Results

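The 42 imprinted genes described here lie in 17 genomic clusters of the mouse genome, 7 of which are represented by a single listed gene. They were taken from a fixed list of gene names and not by any measured value, out of 34156 RefSeq protein-coding and long non-coding genes of at least 500 bp on the autosomes and the X chromosome. From general knowledge, in the tissues where they are imprinted, 18 are expressed mainly from the maternal allele and 20 mainly from the paternal allele. The other 4 (Gnas, Blcap, Grb10 and Inpp5f) are expressed from an allele that depends on the transcript or the tissue. Some of the 18 are imprinted only in certain tissues, such as Ube3a in neurons. Which alleles are used in the cells studied here was not measured. For 41 of the 42 genes, 52 annotated promoters were measured, out of 29419 promoters in all, and all 42 gene bodies were measured. Peg13 was measured over its body only, because its strand is not in the tables used here.

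Imprinted genes are expressed from the allele of one parent. Most sit in clusters under a germline differentially methylated region (germline DMR), a CpG-rich stretch whose DNA methylation is set in the egg or the sperm and is kept on that allele in the embryo. ZFP57, a zinc-finger protein that holds TRIM28 and its partners at these regions, binds the motif TGCCGC when its CpG is methylated. On the unmethylated allele the DMR is often the promoter of a long non-coding RNA, such as Airn or Kcnq1ot1, and neighbouring genes on that allele are silenced, in part by Polycomb repressive complex PRC2. PRC2, with EZH2 as its main enzyme, makes H3K27me1, H3K27me2 and H3K27me3, and H3K27me3 marks silent genes. H3K36me3 marks the transcribed body of active genes, H3K36me2 covers broader active and intergenic regions, and PRC2 works poorly on a histone tail that carries H3K36 methylation. An imprinted locus in which one allele is silent and the other transcribed may therefore show H3K27me3 and H3K36 methylation at the same position in a bulk sample.

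The cells were E14 mouse embryonic stem cells, an established male line from an inbred strain, grown in 2i/LIF medium (a MEK inhibitor, a GSK3 inhibitor and leukemia inhibitory factor) that also carried light, medium or heavy arginine and lysine. Chromatin was sheared to 250-500 bp for immunoprecipitation and sequencing (ChIP-seq). Untreated cells were profiled for H3K27me1, H3K27me2, H3K27me3, H3K36me2 and H3K36me3 in 2 libraries each. In a second experiment H3K27me3 and H3K36me2 were profiled in cells given 10 µM EPZ-6438, an inhibitor of the EZH2 enzyme, or the same volume of DMSO for 7 days, in 2 libraries each, with Drosophila S2 chromatin added at 0.05% as a spike-in. No labels say whether replicate libraries came from separate cultures, so errors and p-values rest on the spread between these libraries, which may be technical. The fits used draw the error of each gene toward a value common to all genes. Untreated libraries held 17.3 to 50.9 M reads (M, 1e6 reads), and the 2 H3K27me3 libraries of inhibitor-treated cells held 0.750 and 1.34 M reads against 16.3 and 21.1 M in DMSO. Over gene bodies, the 8 pluripotency genes checked (among them Pou5f1 and Nanog) had a median H3K36me3 level of 6.34 times the library mean, while all 4 neural, all 4 endoderm and all 4 trophoblast marker genes had H3K27me3 at 2 times the mean or more in both libraries. Not every marker fell on 1 side. Among the 8 pluripotency bodies, Esrrb also had H3K27me3 of 2.38 and 2.37 times the mean in its 2 libraries. H3K36me3 also reached 2 times the mean in both libraries at 3 trophoblast bodies and 1 neural body. The 4 fibroblast markers had a median H3K36me3 of 0.479 times the mean. Of these 4, 2 reached 2 times the mean of H3K27me3 in both libraries. The share of all gene bodies at that H3K27me3 level in untreated cells was not counted.

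Levels in untreated cells are given as times the library mean, that is, reads per 1 kb window divided by the mean over all 2633787 windows of the same library, and the pair of values is always replicate 1 and replicate 2. A promoter is the start site plus and minus 1 kb. A region is called rich in a mark when both replicates reach 2 times the mean. Because the tracks come from bulk cells with no parental variants to separate the alleles, some states cannot be told apart. These are 2 marks on different alleles, on 1 allele or in different cells, and also fewer marked cells and less mark per cell. DNA methylation was not profiled in these libraries, so whether the imprints were intact in these cells is not known. Germline DMR, maternal and paternal are labels from general knowledge.

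The promoter sequences behind the following results are shown for the germline DMR promoters that carry the ZFP57 motif and for the other promoters with the highest H3K27me3 among those with a sequence in the RefSeq table (GRCm38.p6, 250 bases before to 50 after the start site, 5′ to 3′ along the gene). Capitals mark TGCCGC or its reverse complement GCGGCA. Searched on both strands, the motif was in 22.7% of the 44 imprinted promoters with a sequence and in 11.6% of all 32851 promoters of the table. It was in 4 of 9 germline DMR promoters and 6 of 35 others.
Mest promoter 2 (chr6:30737800-30738099, plus strand): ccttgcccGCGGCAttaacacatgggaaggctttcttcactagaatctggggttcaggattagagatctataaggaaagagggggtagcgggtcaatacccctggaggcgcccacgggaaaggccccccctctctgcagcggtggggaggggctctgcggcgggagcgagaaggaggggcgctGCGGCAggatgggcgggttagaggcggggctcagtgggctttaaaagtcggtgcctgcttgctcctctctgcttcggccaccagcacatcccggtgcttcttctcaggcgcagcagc
Nnat (chr2:157559828-157560127, plus strand): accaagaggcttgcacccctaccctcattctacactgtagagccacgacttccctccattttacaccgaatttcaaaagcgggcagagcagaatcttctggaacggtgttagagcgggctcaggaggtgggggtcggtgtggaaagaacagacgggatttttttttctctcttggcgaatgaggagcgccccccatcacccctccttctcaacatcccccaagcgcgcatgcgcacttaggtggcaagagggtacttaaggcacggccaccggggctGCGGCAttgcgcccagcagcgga
Plagl1 (chr10:13090582-13090881, plus strand): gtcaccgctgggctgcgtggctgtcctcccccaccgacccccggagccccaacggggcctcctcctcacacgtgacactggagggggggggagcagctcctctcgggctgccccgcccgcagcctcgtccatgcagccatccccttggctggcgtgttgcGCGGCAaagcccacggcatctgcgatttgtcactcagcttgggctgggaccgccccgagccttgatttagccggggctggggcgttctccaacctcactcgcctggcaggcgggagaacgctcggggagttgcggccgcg
Snrpn promoter 4 (chr7:60005150-60005449, minus strand): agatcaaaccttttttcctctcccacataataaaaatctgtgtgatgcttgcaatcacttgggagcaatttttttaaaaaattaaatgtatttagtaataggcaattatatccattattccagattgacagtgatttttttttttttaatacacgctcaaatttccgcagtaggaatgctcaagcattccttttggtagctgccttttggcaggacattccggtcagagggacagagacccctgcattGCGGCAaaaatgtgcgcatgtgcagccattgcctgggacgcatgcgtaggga
Grb10 promoter 1 (chr11:12037371-12037670, minus strand): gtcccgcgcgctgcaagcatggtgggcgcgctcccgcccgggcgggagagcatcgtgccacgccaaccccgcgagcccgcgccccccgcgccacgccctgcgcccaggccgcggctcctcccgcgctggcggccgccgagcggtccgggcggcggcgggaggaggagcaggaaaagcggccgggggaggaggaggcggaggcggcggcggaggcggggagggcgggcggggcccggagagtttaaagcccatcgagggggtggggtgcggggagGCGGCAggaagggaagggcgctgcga
Igf2 promoter 3 (chr7:142658755-142659054, minus strand): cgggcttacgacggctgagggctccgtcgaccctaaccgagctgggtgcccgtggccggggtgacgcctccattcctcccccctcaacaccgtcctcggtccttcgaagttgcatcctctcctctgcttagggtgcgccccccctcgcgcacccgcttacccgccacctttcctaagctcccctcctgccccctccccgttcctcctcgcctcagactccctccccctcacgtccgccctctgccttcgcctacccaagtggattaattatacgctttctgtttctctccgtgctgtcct
Mest promoter 2, the DMR promoter of Mest, carried the motif 2 times and the other 3 DMR promoters shown carried it once. Grb10 promoter 1 held 45 CG pairs and Igf2 promoter 3 held 24, against a median of 13.5 over the imprinted promoters and 7 over all promoters of the table.

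Most imprinted promoters were rich in H3K27me3 in untreated cells, and those in a germline DMR mostly were not, nor were most promoters of the genome. H3K27me3 was at 2 times the mean or more in both replicates at 29 of 52 imprinted promoters, against 29.2% of all promoters. Of the 12 promoters assigned to a germline DMR only Peg10, Sgce (which share their windows) and Nnat were rich, with a group median of 0.959 times the mean. Of the other 40, 26 were rich, with a median of 4.17, and the median over all promoters was 0.787. The assignment was made by hand with values known, and Gnas promoter 2, which may lie in the exon 1A germline DMR, was left among the others. Counted with the DMR promoters, it would make 4 of 13 rich with a median of 1.17, against 25 of the other 39 with a median of 3.61. These groups were described and not tested. In the DMSO libraries of the second experiment, Airn (2.44 and 3.12) and Mest promoter 2 (2.87 and 2.41) reached the threshold as well. Beyond these and Peg10, Sgce and Nnat, no DMR promoter reached it in both DMSO libraries.

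The highest promoter level was at Kcnq1, a potassium channel gene, with 16.9 and 18.5 times the mean. Grb10 promoter 1, the upstream start of the gene for a growth-restraining adaptor protein, had 16.9 and 16.5. Igf2 promoter 3, a start of the gene for a fetal growth factor, had 15.6 and 16.0, and its other 3 promoters lay between 7.69 and 13.1. The replicates of these promoters did not overlap the levels at the low end, where Copg2 (a coat protein of Golgi vesicles) had 0.00 and 0.0469, Ube3a (a ubiquitin ligase imprinted in neurons) had 0.0784 and 0.0469, and Tssc4 had 0.0784 and 0.0937.

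H3K36me3 was rich at 17 of 52 imprinted promoters, against 14.3% of all promoters. It was rich at 6 of the 12 germline DMR promoters and at 11 of the other 40. H3K36me2 was rich at 6 of 52, against 26.1% of all promoters. H3K27me1 was rich at 6 of 52, against 4.10% of all, at Peg3, Usp29, Mest promoter 2, Rtl1, Rian and Mirg. H3K27me2 was rich at 0 of 52, against 8.86% of all. Rtl1 and Rian share their windows, so counts that hold both count 1 measurement 2 times. The 12 germline DMR promoters cover 11 distinct stretches and the other 40 cover 39.

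**Figure D1:**
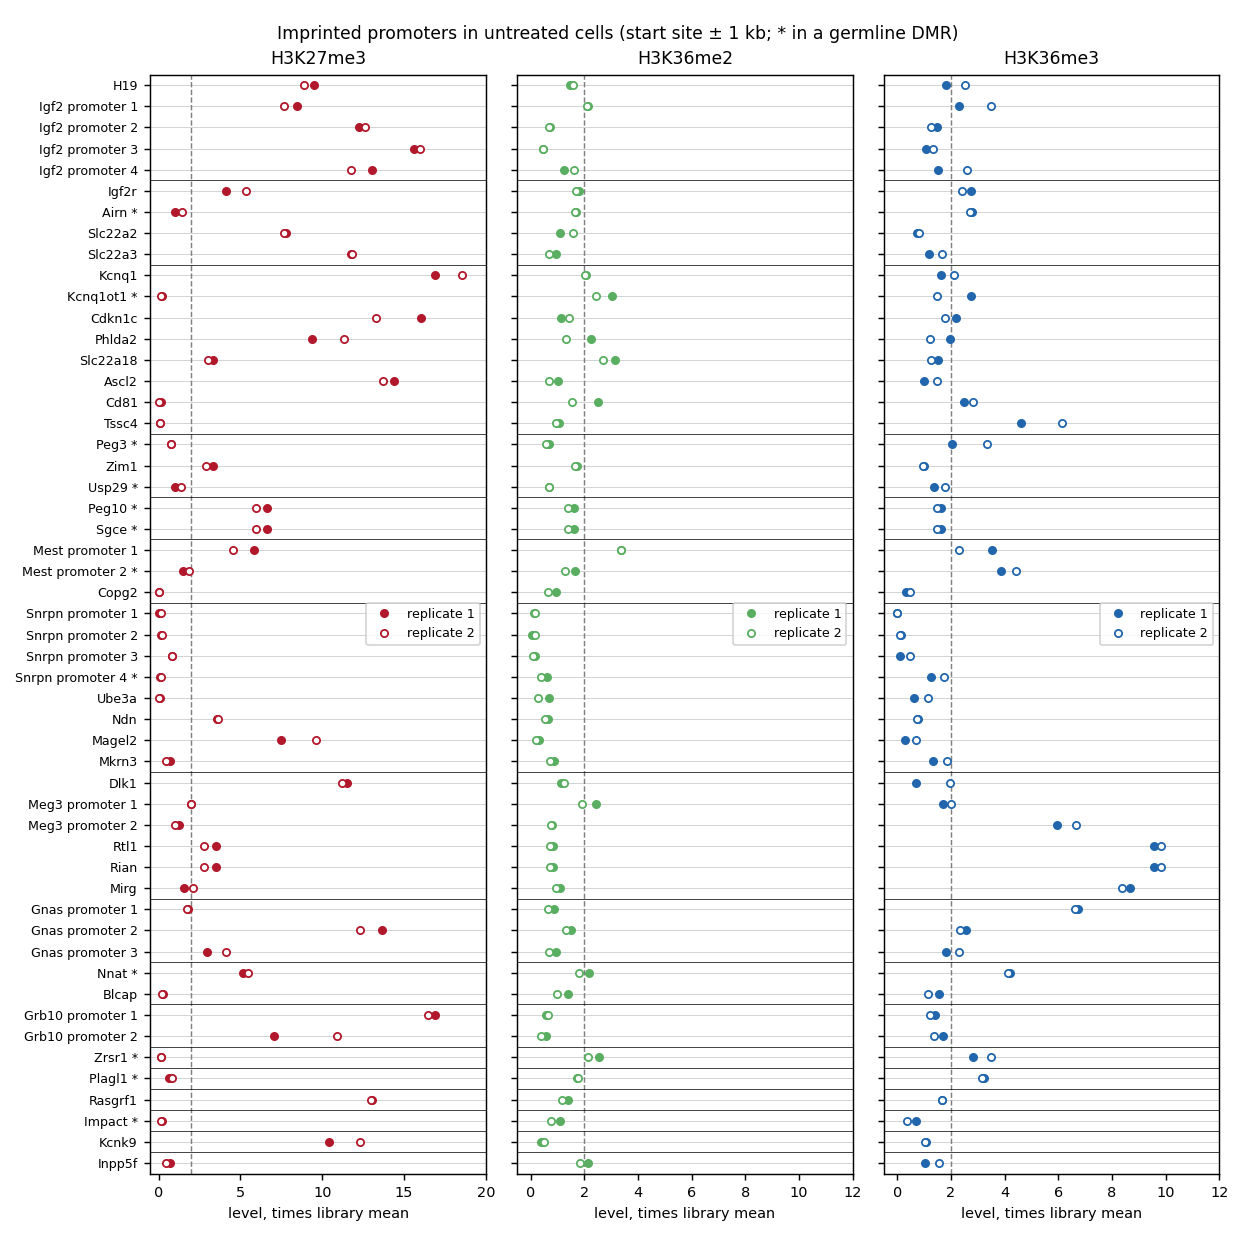
Level of H3K27me3, H3K36me2 and H3K36me3 at each imprinted promoter in untreated cells, in times the library mean, with filled points for replicate 1 and open points for replicate 2. Horizontal lines separate clusters, asterisks mark promoters assigned to a germline DMR and the dashed line is 2 times the mean. Kcnq1, Grb10 promoter 1 and Igf2 promoter 3 reach 15.6 or more in H3K27me3, and Rian and Rtl1, which share windows, reach 9.58 and 9.82 in H3K36me3.

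In the Kcnq1 cluster H3K27me3 lay on both sides of the gene for the silencing RNA and not on it. Kcnq1ot1, the paternally expressed RNA that silences its neighbours, starts inside Kcnq1 at position 143296547 of chromosome 7 and runs over 84 windows, of which 0 were rich in H3K27me3. Its H3K27me3 was 0.418 and 0.490 times the mean. Between the Kcnq1 start and the end of Kcnq1ot1, 74 of 106 windows were rich, at 5.33 and 5.88 times the mean. From the Kcnq1ot1 start to the Kcnq1 end, 126 of 130 windows were rich, at 7.16 and 7.63. H3K36me3 was higher over the RNA than beside it, with 2.59 and 2.51 over Kcnq1ot1, 1.04 and 1.17 before it and 1.16 and 1.26 after it. In H3K27me3 and in H3K36me3 the segment of the RNA did not overlap either neighbouring segment. The Kcnq1ot1 promoter had H3K27me3 of 0.235 and 0.141 and H3K36me2 of 3.05 and 2.43.

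The maternally expressed genes around it fell into 2 kinds. Cdkn1c, a cyclin-dependent kinase inhibitor, had promoter H3K27me3 of 16.0 and 13.3, Ascl2, a trophoblast transcription factor, 14.4 and 13.7, and Phlda2, a restrainer of placental growth, 9.37 and 11.3. Cd81, a tetraspanin, and Tssc4 had gene bodies nearly free of it (0.141 and 0.0937 for Cd81, 0.131 and 0.0937 for Tssc4) and H3K36me3 of 8.99 and 11.4 and of 5.21 and 6.93. Slc22a18, a transporter gene, carried H3K27me3 and H3K36me2 together. All 25 of its windows were rich in H3K27me3, 17 of these were also rich in H3K36me2 (over all gene bodies, 42.5% of H3K27me3-rich windows were), and all 25 lay in the authors' replicated peaks of both marks. Its body had 5.91 and 5.59 times the mean of H3K27me3 and 2.64 and 2.66 of H3K36me2.

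In the Dlk1-Meg3 cluster the H3K27me3-rich windows over the maternally expressed RNAs were also rich in H3K36me3. From the start of Meg3, a long non-coding RNA, to the end of Mirg, a microRNA host RNA, there were 208 windows on chromosome 12. Of these, 163 were rich in H3K36me3 and 40 in H3K27me3, and all 40 were rich in both. Most of the H3K36me3-rich windows were not rich in H3K27me3. Since 163 of the 208 windows were rich in H3K36me3, most of any 40 windows taken from the stretch would be. Over all gene bodies, 15.6% of H3K27me3-rich windows were also rich in H3K36me3, and over all 42 imprinted genes 11.1%. The stretch was singled out after its values were seen. Levels over the bodies were 7.14 and 8.03 of H3K36me3 against 1.80 and 1.71 of H3K27me3 for Meg3, and 6.10 and 7.14 against 1.83 and 1.59 for Mirg, so that H3K27me3 was above the mean in each library but well below the levels at the Dlk1 or Igf2 promoters.

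The promoter shared by Rian, a host of small nucleolar RNAs, and Rtl1, a retrotransposon-derived gene of the paternal allele, had H3K36me3 of 9.58 and 9.82 and H3K27me3 of 3.53 and 2.77. Both of its 1 kb windows were rich in both marks, with H3K27me3 of 3.61 and 3.09 in the first and 3.45 and 2.44 in the second. Rtl1 lies on the opposite strand of Meg3 and Rian, and ChIP reads carry no strand, so the genes share these values. Dlk1, the paternally expressed Notch-family ligand at the other end of the cluster, had H3K27me3 of 11.5 and 11.2 at its promoter and was rich in it in all 11 windows of its body. Between Dlk1 and Meg3, 41 of 78 windows were rich in H3K27me3 and 44 in H3K36me2, and 23 in both. Over all windows of the genome, 39.4% of those rich in H3K27me3 were also rich in H3K36me2.

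In the Igf2r-Airn cluster the marks split near the start of Igf2r, inside Airn, which runs the other way. Igf2r, the maternally expressed receptor that clears IGF2, was rich in H3K36me3 in 86 of 88 windows. Its part outside Airn had H3K36me3 of 6.13 and 6.53 and H3K27me3 of 0.733 and 0.519. Where Airn, the paternally expressed silencing RNA, overlaps it, H3K36me3 was 3.36 and 3.33 and H3K36me2 was 2.46 and 2.33. In the 90 windows of Airn beyond Igf2r, H3K36me3 was 1.13 and 1.04 and H3K27me3 was 2.82 and 2.74. Of those 90 windows, 47 were rich in H3K27me3, 33 in H3K36me2 and 18 in both, so that the joint share of H3K27me3-rich windows was below the 42.5% of all gene bodies. Replicates of the 3 stretches did not overlap in H3K27me3 or H3K36me3. The Igf2r promoter had both H3K27me3 (4.12 and 5.34) and H3K36me3 (2.74 and 2.41), with 5.26 and 6.75 against 3.62 and 3.33 in the window that starts at 12770001 of chromosome 17. The solute carriers Slc22a2 and Slc22a3, silenced by Airn in the placenta, had promoter H3K27me3 of 7.80 and 7.69 and of 11.7 and 11.8.

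**Figure D2:**
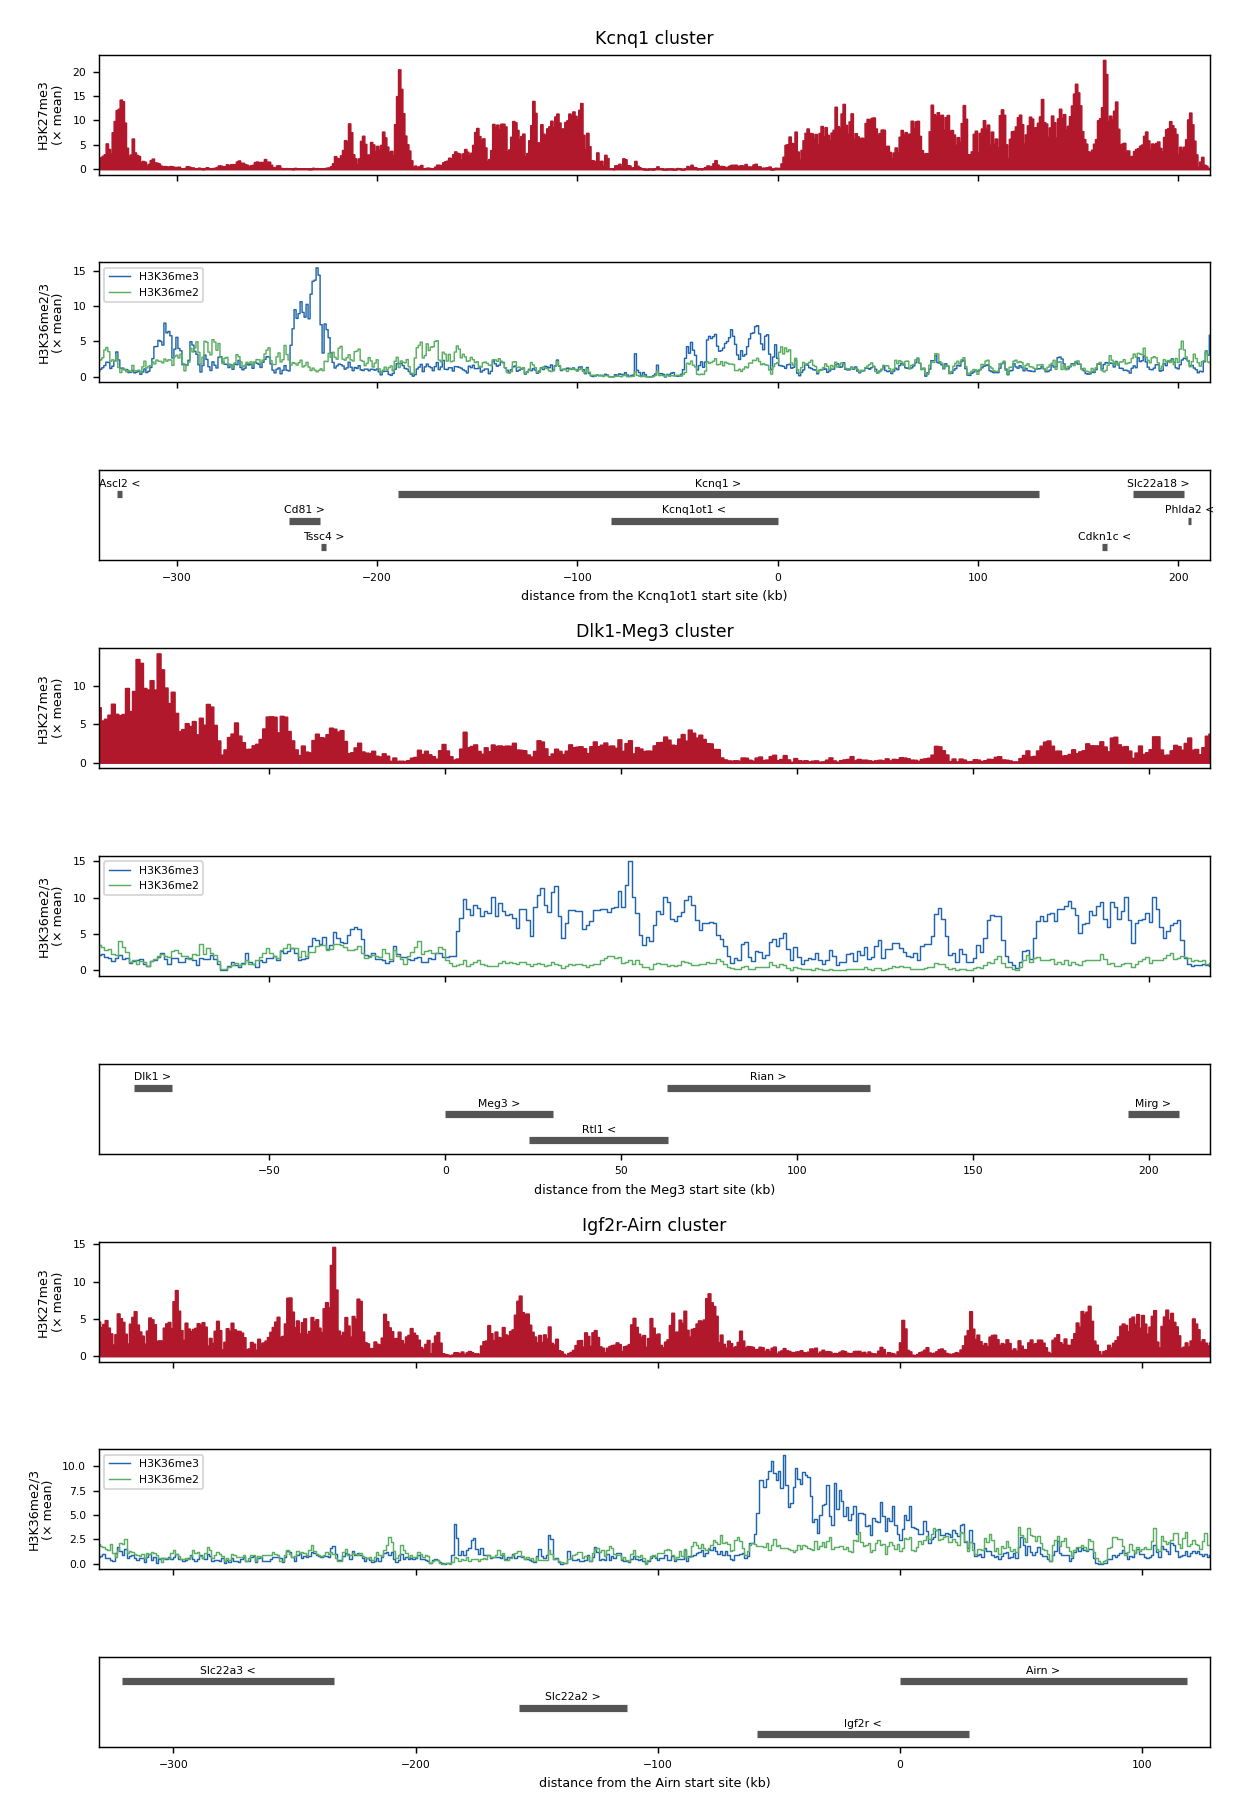
H3K27me3 (red), H3K36me2 (green) and H3K36me3 (blue) in 1 kb windows along 3 clusters in untreated cells, in times the library mean (mean of 2 replicates), against the distance in kb from the start site of Kcnq1ot1, Meg3 or Airn. Bars show the listed genes and arrowheads their direction. H3K27me3 is low over Kcnq1ot1 and over Igf2r apart from its start, and runs at a low level under the H3K36me3 of Meg3, Rtl1 and Rian.

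The Igf2-H19 pair was covered by H3K27me3, with the H3K36 marks near the library mean. All 16 windows of Igf2 and both windows of H19, the maternally expressed RNA, were rich in H3K27me3 and 0 were rich in H3K36me2 or H3K36me3. Levels over the cluster were 10.9 and 11.9 times the mean for H3K27me3, 1.06 and 1.38 for H3K36me3 and 0.822 and 0.962 for H3K36me2. At Igf2 promoter 1, where the RefSeq start lies farthest upstream, both H3K36 marks were also above 2 times the mean, with H3K36me2 of 2.13 and 2.11 and H3K36me3 of 2.30 and 3.50 beside H3K27me3 of 8.47 and 7.69.

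Gnas, which codes for a stimulatory G protein subunit and has several promoters of opposite imprint, had 3 unlike promoters. Gnas promoter 1 had H3K36me3 of 6.75 and 6.60 with H3K27me3 of 1.76 and 1.73. Promoter 2, farther downstream, had H3K27me3 of 13.6 and 12.3 with H3K36me3 of 2.54 and 2.35, and in its second window (from 174328001 of chromosome 2) all 4 libraries of the 2 marks were rich. Promoter 3 had H3K27me3 of 2.94 and 4.12. Over the gene, 17 of 63 windows were rich in H3K27me3, 34 in H3K36me3 and 9 in both. Over all gene bodies, 15.6% of H3K27me3-rich windows were also rich in H3K36me3.

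At Nnat, a membrane proteolipid gene of the paternal allele that lies inside the intron of Blcap, the DMR promoter printed above had H3K27me3 of 5.14 and 5.44, H3K36me3 of 4.20 and 4.13 and H3K36me2 of 2.17 and 1.82. Both of its windows were rich in H3K27me3 and H3K36me3. Blcap, whose transcription runs over Nnat, had H3K36me3 of 5.43 and 5.64 over its body and little H3K27me3 at its own promoter (0.275 and 0.188).

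Mest, a hydrolase-like gene of the paternal allele, had 2 promoters with different marks. Mest promoter 1 had H3K27me3 of 5.80 and 4.55, H3K36me2 of 3.38 and 3.37 and H3K36me3 of 3.52 and 2.30. Promoter 2, in the DMR, had H3K36me3 of 3.86 and 4.42 and H3K27me3 of 1.49 and 1.83, just under the threshold. Peg10, a retrotransposon-derived placental gene, and Sgce, a sarcoglycan, share a DMR promoter with H3K27me3 of 6.63 and 5.95 and H3K36me3 of 1.61 and 1.49.

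In the Peg3 cluster the DMR lies between Peg3, a zinc-finger gene, and Usp29, a deubiquitinase-like gene. Peg3 had promoter H3K27me3 of 0.745 and 0.750 and H3K36me3 over its body of 2.87 and 2.94. Usp29 had 0.981 and 1.36 at its promoter and only 0.666 and 0.580 of H3K36me3 over its body. Zim1, the maternally expressed zinc-finger neighbour, had promoter H3K27me3 of 3.33 and 2.91.

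Pooled over its gene bodies, the Snrpn-Ube3a region held little of any mark, but the promoters of Magel2 and Ndn were rich in H3K27me3. Over the 445 windows of Snrpn upstream of promoter 4, the 5 marks had mean levels between 0.0474 and 0.297 times the library mean, and 0 windows were rich in H3K27me3, H3K36me2 or H3K36me3. No input library is among those used here, and how well reads map to this stretch was not tested. Low levels there can therefore not be told from a lack of mappable reads. Downstream of promoter 4, the DMR promoter printed above, 23 windows had H3K36me3 of 1.27 and 1.11. The paternal genes Magel2 and Ndn, both of the MAGE family, had promoter H3K27me3 of 7.49 and 9.61 and of 3.57 and 3.66, while Mkrn3, their neighbour, had 0.667 and 0.422.

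Several loci listed with a single gene had low H3K27me3. Zrsr1, a splicing-factor retrogene, had 0.118 and 0.141 with promoter H3K36me3 of 2.84 and 3.50. Plagl1, a zinc-finger gene, had 0.627 and 0.797 with H3K36me3 of 3.23 and 3.16. Impact, a translation regulator, had body H3K36me3 of 3.56 and 3.88 and H3K27me3 of 0.0950 and 0.118. Inpp5f, a phosphoinositide phosphatase gene, had promoter H3K27me3 of 0.706 and 0.422. Rasgrf1, a Ras exchange factor gene, was at the other end with promoter H3K27me3 of 13.1 and 13.0, and so was Kcnk9, a potassium channel gene, with 10.4 and 12.3. Peg13, the RNA of the paternal allele in the same cluster, had body H3K36me3 of 3.08 and 4.08 and H3K27me1 of 4.79 and 3.64.

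Few imprinted promoters carried H3K27me3 together with an H3K36 mark. Their share was above that of all promoters for H3K36me3 and below it for H3K36me2, and these shares were not tested. H3K27me3 and H3K36me3 were both rich at 7 of 52 imprinted promoters, against 4.02% of all promoters. The 7 were Igf2 promoter 1, Igf2r, Gnas promoter 2, Mest promoter 1, Nnat, and Rian and Rtl1, which are 1 pair of windows. H3K27me3 and H3K36me2 were both rich at 4 of 52, Igf2 promoter 1, Kcnq1, Mest promoter 1 and Slc22a18, against 12.1% of all. Kcnq1 had H3K36me2 of 2.07 and 2.01, just inside the threshold, and Slc22a18 had 3.14 and 2.69 beside H3K27me3 of 3.29 and 3.05. Igf2r and Nnat fell just outside the H3K36me2 count with 1.80 and 1.69 and with 2.17 and 1.82. A promoter covers about 2 kb, so marks counted together may lie in different windows of it, as at Kcnq1, where H3K36me2 was 2.73 and 2.79 in the window before the start site and 1.40 and 1.23 in the next.

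Over gene bodies, 650 of 2453 imprinted windows (26.5%) were rich in H3K27me3, against 16.0% of the windows of all gene bodies. H3K36me3 joined H3K27me3 in 72 of them, 2.94% of imprinted windows against 2.50% of all. H3K36me2 joined it in 112 windows, 4.57% against 6.80%, which is 17.2% of the imprinted windows rich in H3K27me3 against 42.5% of those of all gene bodies. Of the 112 windows with H3K36me2, Kcnq1 held 37, Airn 19, Slc22a18 17 and Rasgrf1 12. Of the 72 with H3K36me3, counted by gene where genes overlap, Rian held 13, Rtl1 12, Gnas 9, Kcnq1 7 and Meg3 6. These shares moved with the threshold, as given in the closing section.

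Tested gene by gene with limma over the 10 untreated libraries (Benjamini-Hochberg adjustment over 33950 genes), the imprinted genes divided between H3K27me3 and H3K36me3. H3K27me3 exceeded H3K36me3 in 21 of 42 bodies and was below it in 19, where 85.3% of all genes were called (44.5% higher, 40.8% lower). Nnat and Gnas were not called, with log2 differences of -0.76 (SE 0.32, limma adjusted p 0.061) and -0.20 (SE 0.12, limma adjusted p 0.159). The largest excess of H3K27me3 was at Cdkn1c with 3.43 on the log2 scale (SE 0.40, limma adjusted p 1.5e-04), followed by Igf2 with 3.21, Dlk1 with 2.90, Phlda2 with 2.89 and Magel2 with 2.87. The largest excess of H3K36me3 was at Cd81 with -5.57 (SE 0.25, limma adjusted p 1.3e-06), followed by Tssc4 with -4.85, Zrsr1 with -4.68, Impact with -4.21 and Plagl1 with -2.82. In all these genes, picked for the largest differences, the values of the 2 marks did not overlap between libraries. Nearly every gene in the genome differs in this comparison, so the counts describe which side a gene lies on.

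Against H3K36me2, H3K27me3 was higher in 23 of 42 bodies and lower in 13, where 78.6% of all genes were called (30.3% higher, 48.3% lower). The median log2 difference was 0.65 over the imprinted genes and -0.34 over all genes. Cdkn1c (4.28), Igf2 (3.70), Ascl2 (3.66), Phlda2 (2.96) and Magel2 (2.82) led the higher side, and Cd81 (-2.90), Tssc4 (-2.83), Zrsr1 (-2.75), Plagl1 (-2.28) and Impact (-1.98) the lower. Among RNA genes, chosen after their values were seen, Meg3 was at -2.05 against H3K36me3 and at 0.86 against H3K36me2, and Rian was at -1.71 and 0.89. Airn was at 0.50 and 0.21, H19 at 2.54 and 2.53, Kcnq1ot1 at -2.26 and -0.92 and Peg13 at -1.43 and -0.71. The difference between the 2 comparisons was not tested.

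**Figure D3:**
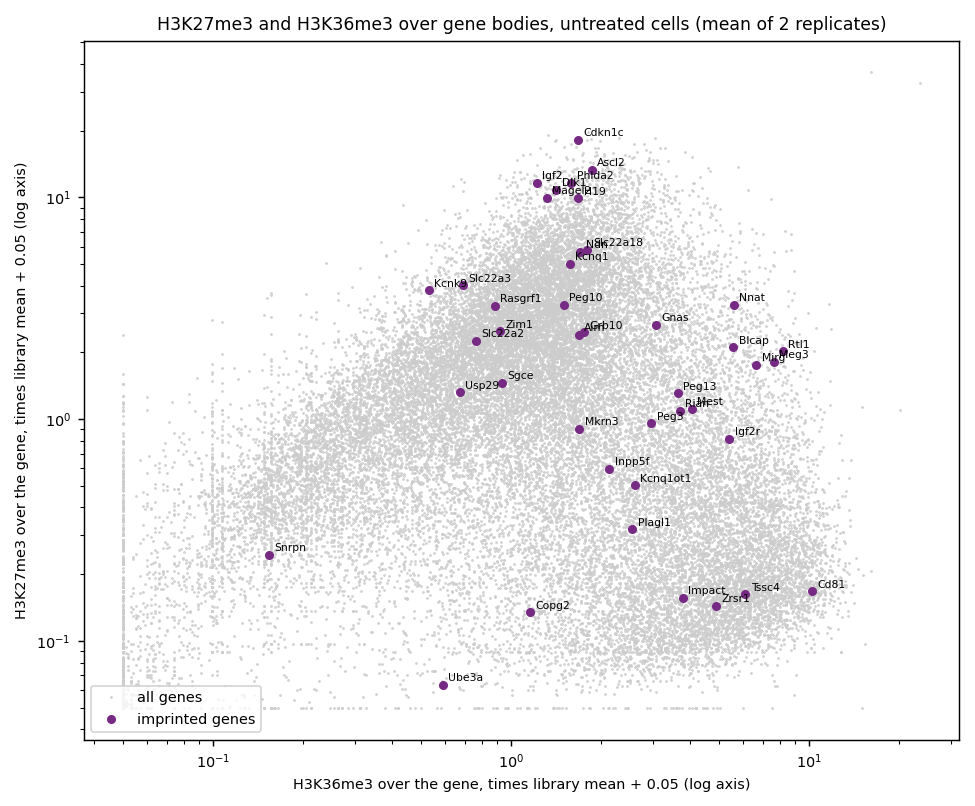
H3K27me3 (vertical) against H3K36me3 (horizontal) over gene bodies in untreated cells, both in times the library mean plus 0.05 on log axes, as the mean of 2 replicates. Grey points are all genes and purple points the 42 imprinted genes. Cdkn1c, Ascl2 and Igf2 sit high at low H3K36me3, Cd81 and Tssc4 sit low at high H3K36me3, and Nnat, Rtl1, Meg3 and Mirg lie above the mean in both.

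After 7 days of EPZ-6438, H3K27me3 on the spike-in scale was lower at every imprinted feature that had enough reads to test. On the spike-in scale limma called all 48 promoters and all 42 bodies tested lower, where 99.4% of all promoters and 99.9% of all bodies were called lower. The other 4 promoters of 52 had fewer than 10 reads over the 4 libraries. The counts at imprinted genes are at the level of the background. On this scale 1 read is worth 5.943 and 3.37 in the DMSO libraries and 0.242 and 0.099 after the inhibitor. Where reads are few, a call can therefore rest on these factors. The Ube3a body was called lower with 13 and 15 reads in DMSO and 14 and 15 after the inhibitor. The largest fitted changes were at the promoters of Phlda2 (log2 change -8.31, SE 0.31, limma adjusted p 1.6e-06), Peg10 and Sgce (-8.27 on their shared windows), Slc22a2 (-8.20) and Mest promoter 1 (-7.99). Over bodies they were at Phlda2 (log2 change -8.36, SE 0.30, limma adjusted p 2.4e-08), Ascl2 (-8.27), Magel2 (-8.08), Ndn (-7.98) and Slc22a18 (-7.94). At the Phlda2 promoter the scaled level (reads times the library's spike-in factor, per window) was 695 and 497 in DMSO and 0.968 and 0.742 after the inhibitor, from 234 and 295 reads against 8 and 15. Since 1 was added before taking logs, fitted changes understate the loss where little is left, and their order partly follows the DMSO level. As a ratio of scaled levels, the bodies of Phlda2, Ascl2 and Magel2 lost 637-fold, 516-fold and 468-fold. These losses were below the 844-fold median of bodies at 2 times the library mean or more in both DMSO libraries. Slc22a18, 1498-fold, was above it, and Ndn had only 1 and 8 remaining reads.

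What was left of H3K27me3 differed between imprinted loci. Grb10 promoter 1 kept the most, with scaled levels of 20.8 and 22.3 after the inhibitor against 1394 and 987 in DMSO, a 55.3-fold loss from 172 and 450 remaining reads. Igf2 promoter 3 had 14.5 and 12.5 against 1545 and 935, and Kcnk9 had 8.47 and 8.17 against 877 and 564. At the other end the Igf2r promoter, with 312 and 261 in DMSO, was left with 1 and 3 reads, Rian with 1 and 1, Mest promoter 1 with 2 and 4, and Peg10 with 1 and 8. Levels after the inhibitor at Grb10 promoter 1 and at these promoters did not overlap in either library. The promoters were picked by what was left, and their DMSO levels differed as well.

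Set against other promoters, the loss was among the smallest in the genome at several members. Among the 9016 promoters that had at least 2 times the library mean in both DMSO libraries, the median loss was 923-fold, with the central 80% between 382-fold and 2639-fold. The 31 imprinted ones had a median loss of 376-fold, and this rests on few reads at some. The loss was 63.9-fold at Grb10 promoter 2, 86.1-fold at Igf2 promoter 2, 86.6-fold at Kcnk9, 91.9-fold at Igf2 promoter 3, 172-fold at Dlk1, 182-fold at Cdkn1c, 184-fold at Gnas promoter 2 and 195-fold at Kcnq1, all below the central range. Phlda2, 697-fold, lay inside it, and so did Nnat, 885-fold from only 0 and 10 remaining reads. Over whole clusters, leaving out Zrsr1 with only 1 and 5 remaining reads, the smallest losses were 98.4-fold at Grb10 and 99.2-fold at Peg13-Kcnk9. The largest were 741-fold at Peg10-Sgce and 822-fold at Rasgrf1, against 505-fold over all gene bodies pooled. That pool includes bodies poor in the mark. Among the 8717 bodies at 2 times the library mean or more in both DMSO libraries, the median loss was 844-fold. The central 80% lay between 466-fold and 1531-fold, and the 2 largest cluster losses fell inside it. The Igf2-H19 cluster lost 150-fold and the Kcnq1 cluster 525-fold.

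The same contrast can be read relative to each library's own mean, which does not use the spike-in. At 28 of 48 imprinted promoters the 2 inhibitor libraries were higher than either DMSO library, against 28.6% of all promoters. At 8 they were lower than either, against 32.7%. Several of the 28 rest on fewer than 10 inhibitor reads, such as Ube3a with 1 and 3. There, 1 read in inhibitor replicate 1 already equals 1.33 times the library mean. Among the 8, all but Phlda2 also rest on fewer than 10 inhibitor reads. Peg10 and Sgce share their windows, and so do Rian and Rtl1. Over bodies the counts were 23 of 42 above, against 40.2% of all bodies, and 10 below, against 33.3%. Grb10 promoter 1 was at 28.6 and 27.7 times the library mean in DMSO and at 228 and 333 after the inhibitor. When libraries were scaled by their total reads, limma called 0 of 48 promoters (0.00% of all promoters, 0 of 24992) and 15 of 42 bodies (30.3% of all bodies). In data simulated at these depths this test recovered none of the changed promoters and missed many changed bodies while calling unchanged ones, so neither count is firm. Of the 15, 13 were higher (22.4% of all bodies), among them Kcnk9 (log2 change 2.41, SE 0.25, limma adjusted p 0.017), Grb10 (2.30), Cd81 (2.26), Cdkn1c (2.01), Igf2 (1.92) and Gnas (1.77), and Slc22a18 (-1.39) and Peg10 (-1.07) were lower (7.97% of all bodies). The body of Cd81 was at 0.358 and 0.327 times the library mean in DMSO and at 4.07 and 1.68 after the inhibitor, from 23 and 17 reads, so a rise in this measure is not limited to loci rich in the mark. The part of read depth, which was 0.750 and 1.34 M reads in the inhibitor libraries, was not tested.

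**Figure D4:**
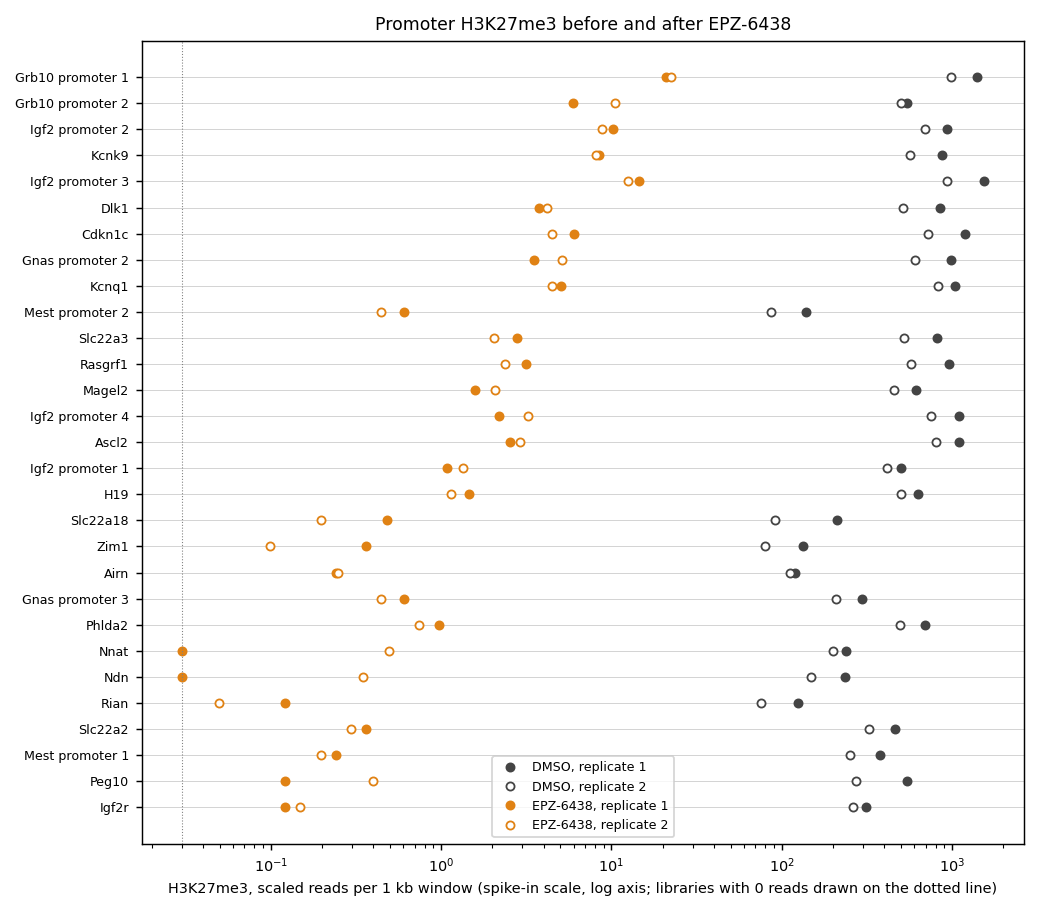
H3K27me3 at imprinted promoters that had at least 2 times the library mean in both DMSO libraries, as scaled reads per 1 kb window on a log axis, in DMSO (grey) and after EPZ-6438 (orange), with filled points for replicate 1 and open points for replicate 2. Promoters are ordered from the smallest loss at the top (Grb10 promoter 1, 55.3-fold) to the largest, and Sgce and Rtl1 are drawn once with Peg10 and Rian, whose windows they share. Points on the dotted line are libraries with 0 reads.

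No imprinted gene body passed the test for H3K36me2 under the inhibitor. Limma called 0 of 42 bodies, where 0.193% of all bodies were called (0.19% higher, 0.00301% lower), with 0 also at an unadjusted p under 0.05 and 0 by limma-voom. The median log2 change was 0.12 over imprinted bodies and 0.10 over all bodies. The 3 largest rises were at Snrpn (log2 change 0.57), Slc22a3 (0.51) and Kcnk9 (0.51), and the 3 largest falls at Peg13 (-0.21), Ascl2 (-0.20) and Ndn (-0.18), all with SE 0.53 and limma adjusted p 1.00. The replicates limit this comparison. The mean scaled level over all windows was 323 and 213 in DMSO and 404 and 227 after the inhibitor, so that replicates differed more than the 2 arms did. Changes of the size of the SE, which was the same for all genes named, were therefore not detectable. Larger changes may also have been missed.

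At promoters limma called 1 of 52, where 0.377% of all promoters were called (0.359% higher, 0.0174% lower). It was Snrpn promoter 2, lower by a log2 change of -2.47 (SE 0.58, limma adjusted p 0.00903), with scaled levels of 70.7 and 27.8 in DMSO and 66.7 and 0.00 after the inhibitor, from 14 and 5 against 14 and 0 reads. Its SE was that of the other promoters named below, and so did not reflect the spread of its own libraries. The call rests on the single library with 0 reads, and without inhibitor replicate 2 the change was 0.57. The 3 largest rises among the rest were at Airn (log2 change 0.70), Snrpn promoter 1 (0.70) and Snrpn promoter 3 (0.57), and the next falls at Kcnq1 (-0.50) and Snrpn promoter 4 (-0.42), all with SE 0.58 and limma adjusted p 1.00. At the Kcnq1 promoter the scaled level was 657 and 572 in DMSO and 529 and 356 after the inhibitor, without overlap.

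Relative to each library's mean, small shifts in H3K36me2 had the same direction in all libraries at some loci. Over bodies, 6 of 42 lay above in both inhibitor libraries, against 20.7% of all bodies, and 16 lay below, against 35.2%. The 6 were Usp29, Snrpn, Rasgrf1, Kcnk9, Slc22a3 and Slc22a2. Slc22a3 had 1.17 and 1.18 times the mean in DMSO and 1.46 and 1.46 after the inhibitor, and Rasgrf1 had 1.45 and 1.44 against 1.69 and 1.70. Igf2r had 1.98 and 2.08 against 1.46 and 1.83, and Inpp5f had 1.71 and 1.62 against 1.43 and 1.43. At promoters, 2 of 52 lay above, against 14.1% of all, and 12 below, against 35.7%. None of these 4 shares stood far above that of the genome, and the genes named here beyond the 6 were chosen after their values were seen.

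Other genes bearing on imprinting were counted from lists. Of 40 further imprinted genes, 39 had a body measured and 29 had at least 1 promoter. H3K27me3 was rich at 19 of their 47 promoters (29.2% of all promoters), with Begain promoter 2 the highest at 14.8 and 16.1. H3K27me3 and H3K36me3 were both rich at 1 of the 47, against 4.02% of all promoters. Under the inhibitor 44 of 44 promoters (99.4% of all) and 39 of 39 bodies (99.9% of all) were lower in H3K27me3. In H3K36me2, 0 of 47 promoters (0.377% of all) and 0 of 39 bodies (0.193% of all) were called. Of 13 genes for imprint maintenance, all 13 bodies were rich in H3K36me3, against 33.1% of all gene bodies, with Trim28, the ZFP57 partner, at 12.2 and 13.5 and the maintenance methylase Dnmt1 at 8.40 and 10.4. Dnmt3l, a cofactor of the DNA methylases, carried both H3K27me3 (3.70 and 3.31) and H3K36me2 (3.03 and 2.97) over its body. Of 13 genes for PRC2 and H3K36 enzymes, all 13 bodies were rich in H3K36me3 (33.1% of all), and Phf19, a PRC2 accessory gene, also had H3K27me3 of 4.81 and 5.34. In both lists 13 of 13 bodies were lower in H3K27me3 after the inhibitor, where 99.9% of all bodies were. In H3K36me2, 0 of 13 were called in each list, where 0.193% of all bodies were.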

How the data were processed

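The deposited tracks hold, in 1 kb windows every 500 bp, log2 values made by the authors, which by their steps are log2(1 + scaled reads). They were returned to whole reads (tolerance 0.02). In the untreated tracks 1 read is worth its value in reads per 1e6 reads of that library. In the 8 quantitative tracks it is worth a library-specific factor (0.099 to 11.115), taken here to be the authors' spike-in factor, whose derivation is not given in the sources used here. Trim Galore 0.4.2, Bowtie2 2.2.6.2, SICER and builds mm10 and dm3 are named in the submitters' processing notes. The deposited replicated peaks carry a score of unstated scale, of which only positions were used.

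Non-overlapping windows on the autosomes and X were kept, and a window belongs to a feature or peak with at least 500 bp in it. Coordinates and start sites are RefSeq GRCm38.p6 (mm10). Promoters of 1 gene under 1 kb apart were merged, and 6 genes had several, numbered in the direction of transcription. For H19, Kcnq1, Cdkn1c, Peg10, Sgce, Rtl1, Impact and Kcnk9 the gene end was used with a strand set by hand. The 12 DMR promoters were assigned by hand from general knowledge, with values known. The outer RefSeq start of Impact may not be its main promoter.

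Tests used limma 3.58.1 (R 4.3.3) on log2(scaled reads + 1), at least 10 reads over 4 libraries, Benjamini-Hochberg adjusted p under 0.05. Untreated marks were compared on log2(times the library mean + 0.1). With 2 libraries against 2, an exact permutation test cannot go below 0.333, so none was used. The tests were run on simulated data with known changes. With library totals most changed features were recovered for H3K36me2, with some false calls. For H3K27me3, whose inhibitor libraries are shallow, no changed promoter was recovered, few changed bodies were, and false calls over bodies outnumbered true ones. The spike-in scale itself was not simulated.

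The members, lists (further imprinted genes, imprint maintenance, PRC2 and H3K36 enzymes, pluripotency, fibroblast, neural, endoderm and trophoblast markers) and tests were chosen with earlier results of these data known. Genes were named by rule: up to 5 called in each direction, or the 3 largest changes where fewer than 3 were called; the 3 highest and lowest promoters in H3K27me3; all co-marked promoters; and at least 1 gene per cluster. Segments of clusters, and the loss ranked among promoters, were chosen after seeing values.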

Additional observations from a re-analysis of the deposited data

How the results depend on the processing

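The fall of H3K27me3 under the inhibitor was called for all 48 promoters and 42 bodies in the main run. The alternative runs did not all test these same features. Requiring a value above 0 in all 4 libraries leaves out features such as the Nnat body, with 0 reads in inhibitor replicate 1. Without the first 2 kb of genes, short bodies could not be tested. The fall was still called in these runs. The exception was library totals, where 0 promoters and 15 bodies (13 higher, 2 lower) were called. That scaling takes out the loss common to all genes. Under it 29 of 42 bodies lay above 0, among them 2 of the named falls, Ascl2 (0.089) and Magel2 (0.21). The share of all bodies above 0 was not counted. The H3K36me2 call at Snrpn promoter 2 gave 0 calls with a pseudocount of 10, no filter, a value above 0 in all 4 libraries, library totals, limma-voom, the replicate block or plus and minus 2 kb, and 0 to 1 with 1 library left out. With 1 library left out its change ranged from -5.51 (without EZH2i replicate 1) to 0.57 (without EZH2i replicate 2), and that of Snrpn promoter 3 from -0.45 to 1.60. H3K36me2 changes over bodies ranged from -0.53 to 0.11 at Peg13, -0.54 to 0.14 at Ascl2 and -0.65 to 0.30 at Ndn. Over the genome, H3K36me2 calls ranged from 0 to 179 at promoters and, without the block, from 0 to 132 over bodies. The cause was not tested. H3K27me3 against H3K36me3 gave 31 calls (15 higher, 16 lower) without the first 2 kb of genes, where 33 bodies were long enough to test. Promoters with H3K27me3 and H3K36me2 together numbered 8 at 1.5 times the mean, 1 at 3 times, 7 against the library median, 13 by the authors' peaks and 4 to 6 with 1 replicate; with H3K36me3 they numbered 16, 1, 21 against the median, and 8 to 12 with 1 replicate. Body windows with H3K27me3 and H3K36me2 made up 10.6% at 1.5 times, 0.448% at 3 times, 11.4% against the median, 16.2% by peaks, 6.36% in the DMSO libraries and 6.52% to 7.26% with 1 replicate; with H3K36me3 they made up 6.56%, 0.775%, 11.4% against the median and 4.89% to 4.93%. These alternative counts and shares are not set against all promoters or all gene bodies under the same setting. They show only how the imprinted values move. Same-numbered DMSO and inhibitor libraries deviated together with correlations of 0.022 (H3K27me3) and 0.187 (H3K36me2) at promoters. Over bodies the correlations were 0.0377 and 0.531, and with 2 numbers these do not establish pairs. With the replicate block 48 promoters (108 without) and 3600 bodies (64 without) were called in H3K36me2 over the genome, and 0 imprinted ones. Counting Gnas promoter 2 as a germline DMR promoter, an alternative added after seeing the data, made 4 of these promoters rich in H3K27me3 instead of 3.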
